A study of Mus musculus with 15 samples.

Results

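The interferon regulatory factors (Irf) are a family of transcription factors that bind DNA through a shared domain. The members examined were Irf1, Irf2, Irf3, Irf4, Irf5, Irf7, Irf8 and Irf9. They were taken by gene symbol, and every probe set that the array annotation gives to 1 of these symbols alone was kept. The family came to 8 genes and 14 probe sets, of 18193 genes and 45037 probe sets on the array. Irf3 had 4 probe sets, Irf4, Irf5 and Irf8 had 2 each, and the other members had 1. Values come from a gene's leading probe set, the one brightest on average over the 15 arrays, unless another is named.

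Expression was measured on 15 Affymetrix arrays hybridised with RNA from cells of C57Bl/6 mice at steady state. Wild-type bone marrow gave common myeloid progenitors (CMP; CD117 high, CD135+, CD16/32-), granulocyte-macrophage progenitors (GMP; CD117 high, CD16/32+, CD135-), common dendritic cell progenitors (CDP; CD117 intermediate, CD135+) and pre-cDC (CD117 low, CD135+, CD11c+), the precursors from which classical dendritic cells arise, with 2 arrays each. The sorts also excluded cells with IL7R or MHC class II on the surface. Single arrays held non-adherent CD11c+ cells and adherent cells of whole bone marrow grown for 7 days in GM-CSF, adherent cells grown for 7 days in M-CSF, and bone marrow monocytes after 0, 24 and 48 h in GM-CSF, with each cytokine at 20 ng/ml. The monocytes had been enriched by depleting other cells and were over 90% positive for CD11b and Ly6C, per the labels. One further wild-type pre-cDC array was titled Spl.

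Irf3, Irf5 and Irf7 are activated by kinases downstream of sensors of microbial nucleic acids and other microbial products, and drive interferon and cytokine genes. Irf9 is the DNA-binding part of a complex that interferons activate, which binds the interferon-stimulated response element (ISRE) of target genes. Irf1 and Irf2 bind similar sites, Irf1 mostly as an activator and Irf2 often as its antagonist. Irf4 and Irf8 are expressed mainly in blood cells and pair with partners such as PU.1 (gene Spi1) and Batf. Both are known from mouse mutants as regulators of monocyte and dendritic cell development.

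Promoters are shown for the members in which a searched motif was found, since family members and interferon signals act on such sites. The windows run from 250 bases before to 50 bases after the annotated start and come from RefSeq on GRCm38.p6, in which all 8 genes were matched. Searched on both strands were the ISRE core GAAANNGAA, the gamma-activated site (GAS) TTCNNNGAA and the joint Ets and Irf site (EICE) GGAANNGAA. Capitals mark the matches, which in Irf2 include an EICE and an ISRE that overlap.
Irf1 promoter, chr11:53769764-53770063, plus strand: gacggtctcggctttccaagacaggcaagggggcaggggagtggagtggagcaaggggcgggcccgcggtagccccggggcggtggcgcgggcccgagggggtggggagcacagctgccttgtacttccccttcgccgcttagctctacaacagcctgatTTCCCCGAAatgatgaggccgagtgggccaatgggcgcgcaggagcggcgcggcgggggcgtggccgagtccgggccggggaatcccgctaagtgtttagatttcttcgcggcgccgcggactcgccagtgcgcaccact
Irf2 promoter, chr8:46739495-46739794, plus strand: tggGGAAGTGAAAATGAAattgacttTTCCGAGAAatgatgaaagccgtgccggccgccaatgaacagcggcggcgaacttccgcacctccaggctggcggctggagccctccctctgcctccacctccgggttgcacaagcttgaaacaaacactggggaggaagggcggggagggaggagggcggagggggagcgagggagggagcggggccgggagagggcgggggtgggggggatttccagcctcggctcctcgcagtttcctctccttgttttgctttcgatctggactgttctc
Irf8 promoter, chr8:120736108-120736407, plus strand: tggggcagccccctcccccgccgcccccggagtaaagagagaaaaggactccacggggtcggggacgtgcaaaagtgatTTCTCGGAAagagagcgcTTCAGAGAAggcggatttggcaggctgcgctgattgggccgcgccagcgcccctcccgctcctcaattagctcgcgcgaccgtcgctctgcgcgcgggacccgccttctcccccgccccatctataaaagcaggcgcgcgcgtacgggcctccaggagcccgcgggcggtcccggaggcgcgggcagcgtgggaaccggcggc
The Irf1 window held 1 GAS match, whose first base lay 90 bases before the start. In Irf2 the EICE, ISRE and GAS matches began 247, 241 and 224 bases before the start. The Irf8 window held 2 GAS matches, at 171 and 153 bases before the start. Of 32851 promoters of the same length, 8.56% held an ISRE match, 8.3% a GAS match and 8.24% an EICE match. The windows of Irf3, Irf4, Irf5, Irf7 and Irf9 held none of these letters, nor did the second windows of Irf1, Irf8 and Irf9. A match is a run of letters and was not tested as a binding site.

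The deposited intensities lay on 4 scales, with array medians of 15.95 to 17.44 in the 8 progenitor arrays, 24.09 to 25.66 in the culture arrays, 77.73 to 80.53 in the monocyte arrays and 74.17 in the Spl array. Values were therefore compared within a set, and levels of different genes were not set against each other. In the bone marrow arrays Kit, which encodes CD117, followed the gates, with 905 to 1229 in CMP and GMP, 368 and 335 in CDP, and 36.3 and 36.8 in pre-cDC. Itgax, which encodes CD11c, read 1537 and 1563 in pre-cDC, against at most 153 in the other progenitors. H2-Aa, a class II gene, read 4937 and 5539 in pre-cDC although the sort excluded surface class II. The Spl array went against its gate, with Kit at 1105. It also held Ccr9 at 1387, against 39.8 and 40.4 in bone marrow pre-cDC on their dimmer scale. Its labels name spleen only by the short form Spl and give bone marrow as its cell source, so it entered no test. The labels do not say that replicate arrays came from separate animals, so p-values measure the spread between these arrays only. In these bulk samples, fewer cells of a type and less RNA per cell cannot be told apart.

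Across the progenitors the family was low in GMP and high in pre-cDC. The mean was lowest in GMP for 7 of 8 members, with Irf4 lowest in CMP, and highest in pre-cDC for 7 of 8, with Irf1 highest in CDP. Among 11477 genes with a highest group mean above the median, 30.88% were lowest in GMP and 34.91% were highest in pre-cDC. These counts are descriptions, since the members were known from earlier results. The plot of progenitor intensities shows the 4 groups for each member.

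**Figure D1:**
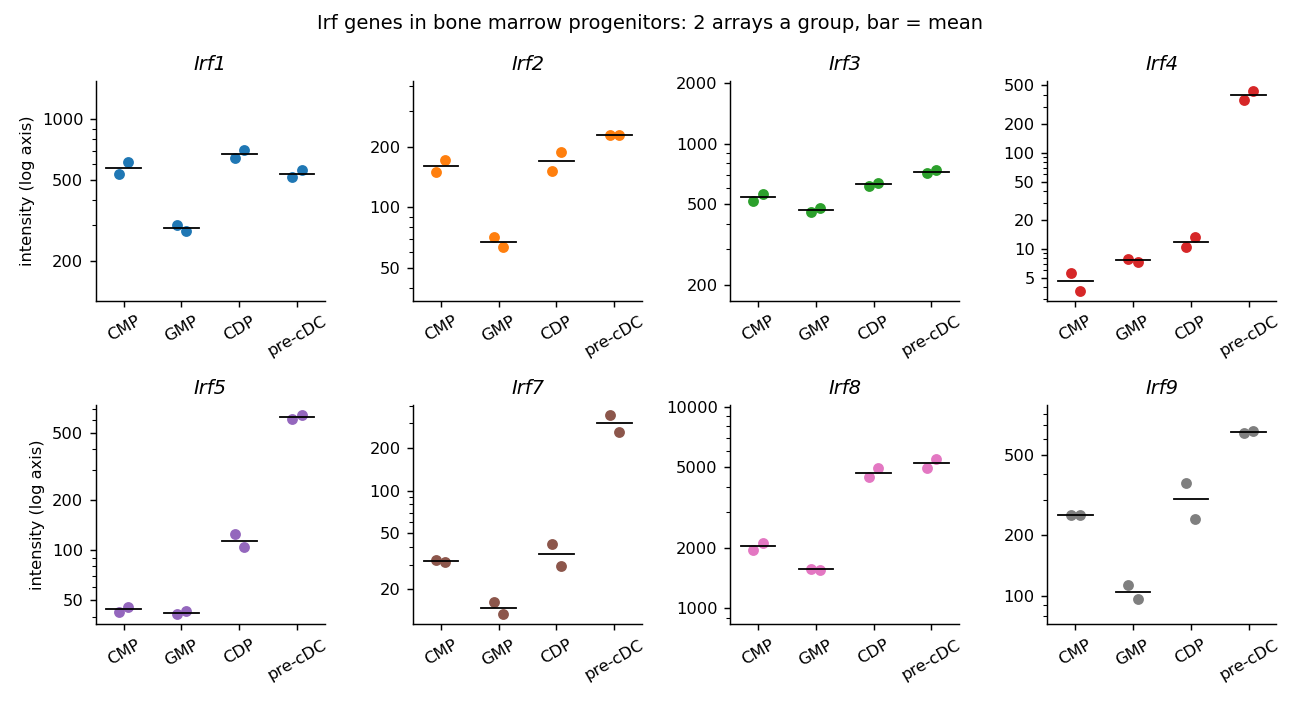
Intensity of each Irf gene on a log axis in the progenitor groups CMP, GMP, CDP and pre-cDC. Points are the 2 arrays of a group and bars their mean; Irf4 lies between 3.67 and 13.3 in CMP, GMP and CDP and at 357 and 437 in pre-cDC.

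In GMP against CMP, 5 of the 8 members fell and 0 rose by the limma test (adjusted p under 0.05 over all probe sets, on log2(intensity + 32)). The same test called 8.67% of all genes lower and 6.26% higher. The members' median difference was -0.41 on the log2 scale, against -0.01 over all genes. In CDP against GMP, 7 members rose and 0 fell, beside 14.9% of genes higher and 11.2% lower. Their median difference was 0.996, against 0.00 over all genes. In CDP against CMP, Irf5 and Irf8 rose, 2 of 8, and 0 fell, beside 6.4% higher and 5.55% lower.

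In pre-cDC against CDP, 5 members rose and 0 fell, beside 13.2% of genes higher and 17.4% lower. In pre-cDC against GMP, 8 rose and 0 fell, beside 20.4% higher and 22.2% lower. In pre-cDC against CMP, 7 rose and 0 fell, beside 18.3% higher and 22.1% lower. The median member differences were 0.71, 2.02 and 1.30 in these comparisons, and the medians over all genes were -0.01 in each. Comparisons with a group in common share its 2 arrays and are not independent.

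**Figure D2:**
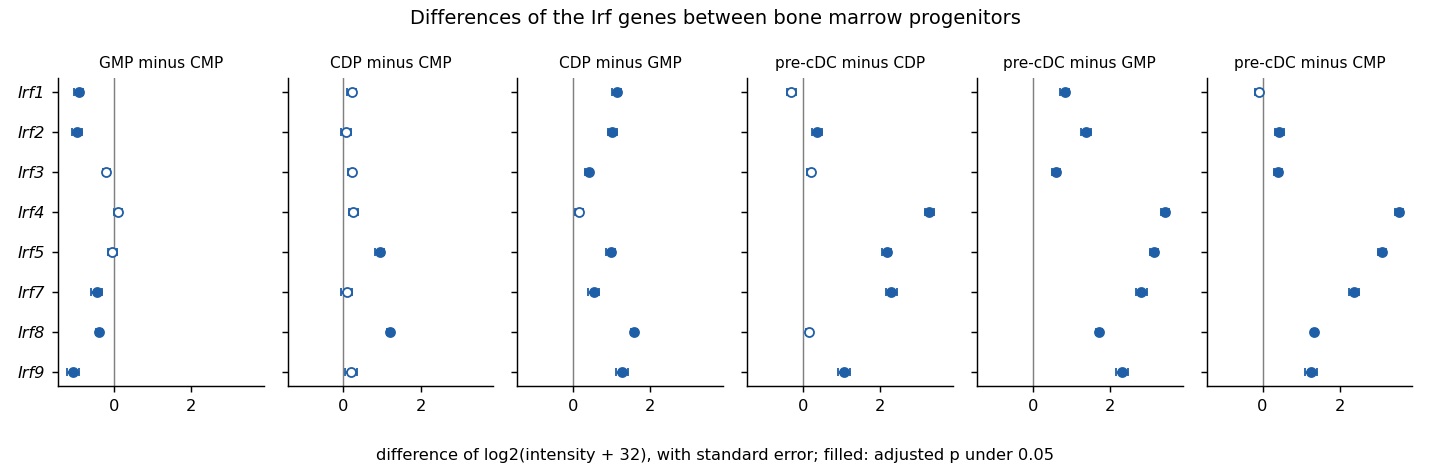
Difference of log2(intensity + 32) for each Irf gene in the 6 comparisons among progenitors, with its standard error from limma. Filled points have an adjusted p under 0.05; in GMP minus CMP the 5 filled points lie below 0, and in the other panels all filled points lie above 0.

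Irf8, required in mice for monocytes and several dendritic cell types, had its main step at the CDP. It read 1957 and 2110 in CMP, 1565 and 1556 in GMP, 4490 and 4936 in CDP, and 4990 and 5468 in pre-cDC. No array of CDP or pre-cDC came near those of CMP or GMP. Irf8 rose by 1.20 (SE 0.07) on the log2 scale in CDP against CMP, with a limma adjusted p of 1.49e-06. Against GMP the rise in CDP was 1.57 (adjusted p = 2.55e-08 by limma). In GMP against CMP it fell by 0.37 (adjusted p = 0.0051 by limma). Leaving out the second CMP array raised that adjusted p to 0.0794.

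Between pre-cDC and CDP the Irf8 arrays did not overlap, but the difference of 0.15 did not pass (adjusted p = 0.183 by limma). The other Irf8 probe set read 1807 and 2116 in CMP, 1667 and 1534 in GMP, 3783 and 4395 in CDP, and 4358 and 4881 in pre-cDC. It gave the same order of groups, with differences of 1.05 in CDP against CMP and 1.33 in CDP against GMP. Its difference of -0.28 in GMP against CMP did not pass (adjusted p = 0.0801 by limma).

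Irf4, which acts in dendritic cells, lymphocytes and alternatively activated macrophages, was bright only in pre-cDC among the progenitors. It read 5.59 and 3.67 in CMP, 7.92 and 7.25 in GMP, 10.5 and 13.3 in CDP, and 357 and 437 in pre-cDC. The values in CMP, GMP and CDP lay below the median of their arrays, so the order of these groups was not resolved. In pre-cDC against CDP, Irf4 rose by 3.28 (SE 0.11) on the log2 scale, with a limma adjusted p of 1.22e-09. The size of that difference depends on the 32 added before the logarithm. The second Irf4 probe set stayed dim, at 15.1 and 12.2 in pre-cDC, against 5.31 and 5.44 in CDP.

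Irf5, which acts downstream of Toll-like receptors and Myd88, climbed over the dendritic stages. It read 42.6 and 45.8 in CMP, 41.2 and 43.0 in GMP, 124 and 104 in CDP, and 604 and 644 in pre-cDC. CMP and GMP overlapped, and CDP and pre-cDC each stood apart. By limma Irf5 rose by 0.94 in CDP against CMP (SE 0.11, adjusted p = 0.00023) and by 2.17 in pre-cDC against CDP (SE 0.11, adjusted p = 3.83e-08). Its other probe set read 18.1 to 24.2 over these 8 arrays and passed in 0 of the 6 comparisons, so the probe sets disagree.

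Irf7, the factor that amplifies type I interferon production, read 32.2 and 31.2 in CMP, 16.3 and 13.3 in GMP, 42.2 and 29.2 in CDP, and 344 and 259 in pre-cDC. Only pre-cDC lay well above the others, and the CDP arrays enclosed those of CMP. Irf7 rose by 2.30 on the log2 scale in pre-cDC against CDP (SE 0.13, adjusted p = 1.08e-07 by limma). Its fall of 0.45 in GMP against CMP was at the threshold (adjusted p = 0.0499 by limma), with both GMP arrays near the array median. That call was lost when any CMP or GMP array was left out, with adjusted p of 0.16 to 0.268, with 64 added in place of 32 (0.122), after quantile normalization (0.0651) and without the intensity trend (0.055). The rise of 0.53 in CDP against GMP (adjusted p = 0.0123 by limma) was lost without either GMP array (0.0543 and 0.103) and without the first CDP array (0.0993).

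The summed intensity of 5 plasmacytoid dendritic cell markers was lowest in GMP and highest in pre-cDC, as the means of all members but Irf1 and Irf4 were. The sum was 1487 and 1561 in CMP, 690 and 671 in GMP, 2575 and 2476 in CDP, and 5015 and 4988 in pre-cDC. Tcf4 and Bst2 made up most of the sum, and Siglech, a defining marker, read 171 and 148 in pre-cDC against 54.6 and 40.7 in CDP. In CMP and GMP Siglech lay between 5.49 and 8.88. Ccr9 was lower in pre-cDC, at 39.8 and 40.4, than in CDP, at 57.7 and 60.0. Summed, 4 classical dendritic cell markers were also lowest in GMP, at 72.4 and 72.3, and highest in pre-cDC, at 8179 and 8958. A sum of 3 erythroid markers ran the other way, with 1076 to 2299 in CMP and GMP, and 16.6 to 35.1 in CDP and pre-cDC. The part of such cells in the Irf differences was not tested.

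Irf3, the ubiquitous first responder to nucleic acid sensing, varied least. It read 520 and 564 in CMP, 461 and 480 in GMP, 621 and 640 in CDP, and 715 and 740 in pre-cDC. The groups did not overlap, yet only the wider steps passed. Irf3 rose by 0.40 in CDP against GMP (adjusted p = 0.0102 by limma) and by 0.60 in pre-cDC against GMP (adjusted p = 0.00031 by limma). The rise of 0.41 in pre-cDC against CMP (adjusted p = 0.0061 by limma) was lost without the first CMP array (0.0598). The CDP rise was lost without the first GMP array (0.0839) and without the second CDP array (0.0573). Of the other 3 probe sets, 1 passed in 0 of the 6 comparisons, with 276 and 269 in pre-cDC against 243 and 237 in GMP. In pre-cDC against CMP these 3 did not pass, with adjusted p of 0.406, 0.19 and 0.215 by limma. In CDP against GMP their adjusted p were 0.239, 0.159 and 0.0017 by limma.

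Irf9, the DNA-binding subunit of the interferon-activated complex, read 252 and 253 in CMP, 113 and 97.2 in GMP, 363 and 240 in CDP, and 640 and 660 in pre-cDC. GMP was lowest and pre-cDC highest without overlap, and the CDP arrays enclosed those of CMP. By limma Irf9 fell by 1.05 in GMP against CMP (SE 0.15, adjusted p = 0.00063). It rose by 1.06 in pre-cDC against CDP (SE 0.15, adjusted p = 0.00023 by limma).

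Irf1, an activator induced by interferon gamma, read 536 and 615 in CMP, 301 and 279 in GMP, 642 and 703 in CDP, and 517 and 562 in pre-cDC. The GMP arrays lay below all others, and the pre-cDC and CMP arrays overlapped. By limma Irf1 fell by 0.91 in GMP against CMP (SE 0.11, adjusted p = 0.00016) and rose by 1.13 in CDP against GMP (adjusted p = 1.50e-05). The difference of -0.30 in pre-cDC against CDP missed the threshold (adjusted p = 0.0707 by limma), although the arrays did not overlap. It passed in 5 of the other settings, with adjusted p of 0.0341 to 0.0459. Irf1 was the 1 member that did not rise in pre-cDC against CMP (-0.09, adjusted p = 0.624 by limma).

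Irf2, its counterpart, read 149 and 171 in CMP, 71.4 and 63.7 in GMP, 151 and 189 in CDP, and 227 and 228 in pre-cDC. CMP and CDP overlapped, GMP lay below them and pre-cDC above. By limma Irf2 fell by 0.95 in GMP against CMP (SE 0.12, adjusted p = 0.00026). The rise of 0.37 in pre-cDC against CDP (adjusted p = 0.0468 by limma) was close to the threshold. That call was lost without any of 7 arrays, all but the second CDP array, with adjusted p of 0.0576 to 0.283, and with 16 added in place of 32 (0.0522). The rise of 0.44 in pre-cDC against CMP (adjusted p = 0.0148 by limma) was lost without the first CMP array (0.121) or either pre-cDC array (0.051 and 0.061).

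In the Spl array the place of a member among all probe sets was compared in place of its intensity, with no test. Irf8 stood at the 88.3 percentile, against 99.6 on both bone marrow pre-cDC arrays, with intensities of 568 against 4990 and 5468 on unlike scales. Irf2 stood at 97.1, against 85.4 on both. Irf4 stood at 76.4 against 89.2 and 90.9, and Irf5 at 84.5 against 93.0 and 93.4. The second probe sets of Irf4 and Irf5 went the other way. They stood at 50.1 against 47.6 and 41.0 for Irf4, and at 62.4 against 52.6 and 54.4 for Irf5. The second Irf8 probe set was lower in Spl like the first, at 91.1 against 99.4 and 99.5. Irf7 was at 87.5 and Irf9 at 92.7, each within 2 percentile points of the bone marrow arrays. The Spl array thus held Irf8 lower and Irf2 higher in rank. Its Kit and Ccr9 levels given above and its plasmacytoid marker sum of 10207 are intensities on its own scale. They were not ranked. The part of other cells in these ranks was not tested.

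In monocytes given GM-CSF, Irf8 and Irf7 were lower and Irf4 higher at 24 h than at 0 h. Each time had 1 array, so these differences have no replicate check and no p-value. Genes were counted from a 2-fold difference on log2(intensity + 32) upward, provided that the higher value exceeded the array median. At 24 h against 0 h, 1 of 8 members was higher and 3 were lower, beside 6.22% and 7.29% of all genes. At 48 h against 24 h, 2 were higher and 0 lower, beside 2.75% and 0.89%. At 48 h against 0 h, 1 was higher and 2 were lower, beside 7.4% and 6.19%.

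Irf4 read 473 at 0 h, 6639 at 24 h and 6248 at 48 h, so that the 24 h intensity was 14.0 times that at 0 h. Irf8 read 10171 at 0 h, 1162 at 24 h and 1791 at 48 h, an 8.75-fold lower intensity at 24 h. The second Irf8 probe set gave 5449, 713 and 1013 at these times. Irf4 was highest at 24 h, the time at which both Irf8 probe sets were lowest. The second Irf4 probe set was dimmer, at 73.2, 158 and 133 at these times, and was not past 2-fold in either comparison with 0 h.

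Irf7 read 3705 at 0 h, 219 at 24 h and 542 at 48 h, and was 16.9-fold lower at 24 h than at 0 h. Irf9 read 2323 at 0 h, 566 at 24 h and 1183 at 48 h. Both were higher again at 48 h than at 24 h. The log2 differences were 1.20 for Irf7 and 1.02 for Irf9, the latter just above the 2-fold cut. Neither was back at its 0 h intensity, though Irf9 was no longer counted as lower. The 48 h differences against 0 h were -2.70 for Irf7 and -0.95 for Irf9.

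The other members were not counted at any time by their leading probe sets. Irf1 read 5087, 2830 and 4070 at 0, 24 and 48 h, and Irf2 read 384, 274 and 379. Irf3 read 3949, 3128 and 3874, and Irf5 read 5846, 8721 and 5880. By their leading probe sets, Irf1, Irf2 and Irf3 were lowest at 24 h, as Irf7, Irf8 and Irf9 were. Irf4 and Irf5 were highest then. The other Irf5 probe set read 51.3, 136 and 128 at these times and was past 2-fold at 24 h against 0 h. A dim Irf3 probe set read 106, 30.5 and 73.8 and was past 2-fold in the same comparison, downward. Another Irf3 probe set read 165, 198 and 238, lowest at 0 h, and a further probe set read 223, 206 and 169, lowest at 48 h.

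**Figure D3:**
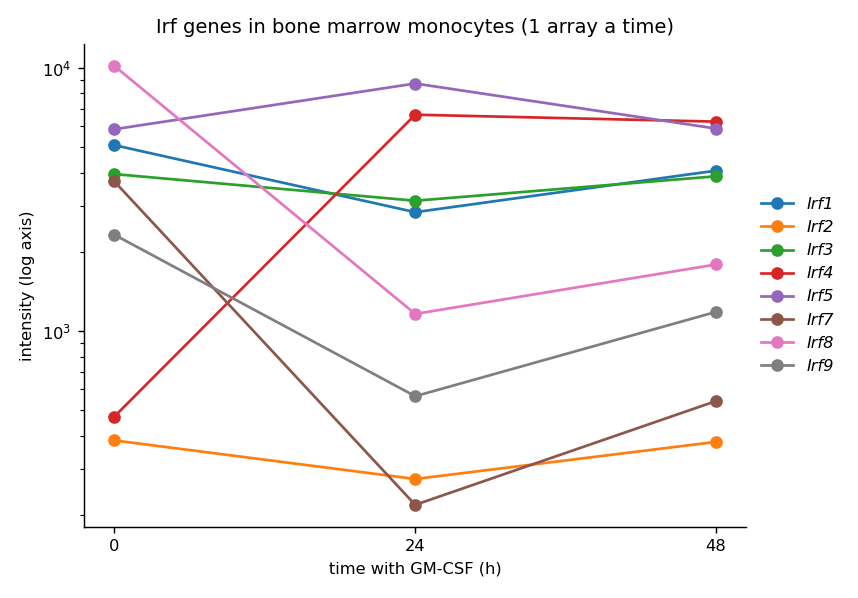
Intensity of each Irf gene on a log axis in bone marrow monocytes after 0, 24 and 48 h in GM-CSF, 1 array a time. Irf8 and Irf7 drop to 1162 and 219 at 24 h while Irf4 reaches 6639.

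Markers of other cells also differed between the monocyte arrays. The summed intensity of 4 B cell markers was 1022 at 0 h, 338 at 24 h and 245 at 48 h, with Cd79b at 700, 25.0 and 20.0. Cd79a, a defining marker, lay between 37.3 and 44.5, below the array medians. Pax5, of the same list, read 227 at 0 h, 238 at 24 h and 148 at 48 h. Elane and Mpo, granule genes of progenitors, read 1791 and 4935 at 0 h, 290 and 170 at 24 h, and 56.9 and 277 at 48 h. The plasmacytoid marker sum was 2232, 1602 and 3221 at these times, with Siglech at 49.0, 65.3 and 48.1. Within that sum Tcf4 read 1607, 650 and 1014, and Pacsin1 read 19.1, 148 and 1211. The erythroid marker sum was 1289, 2137 and 1634, with Hba-a1 at 921, 1970 and 1492, while Klf1 and Car1 were highest at 0 h. Of 4 neutrophil markers, Mmp8 read 2099, 5254 and 2916 at 0, 24 and 48 h. The other 3 were lowest at 24 h, with Ngp at 890, 603 and 967, Ltf at 187, 122 and 128, and Camp at 479, 177 and 243. The part of such cells in the Irf differences was not tested.

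Interferon-stimulated genes, 16 of 18 listed being measured, were mostly lower at 24 h as well. At 24 h against 0 h, 10 of 16 were at least 2-fold lower and 0 higher, with a median difference of -1.26 on the log2 scale, against 0.00 over all genes. At 48 h against 24 h, 9 were higher and 0 lower, with a median of 1.08 against 0.02. The shares of all genes for these times are given above. Oasl2, a member of the oligoadenylate synthetase-like family, read 3143 at 0 h, 86.1 at 24 h and 1332 at 48 h. Ifit1, an inhibitor of viral translation, read 585, 16.3 and 470. Gbp2, a guanylate-binding protein induced by interferon gamma, read 1798, 879 and 4596 and was higher at 48 h than at 0 h. Stat2, the partner of Irf9, read 514, 140 and 627. The interferon genes themselves, 5 of 5 measured, had 0 counted in any comparison between these times.

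**Figure D4:**
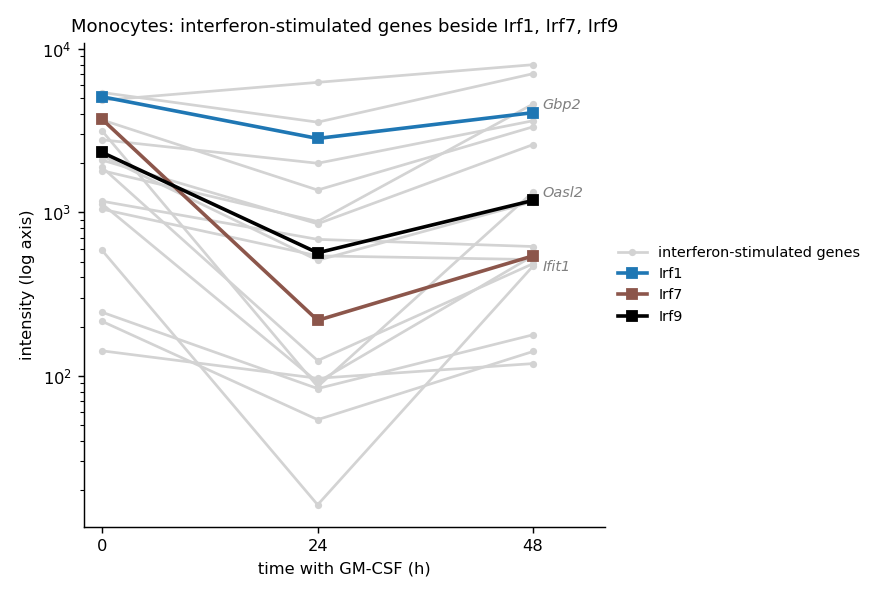
Intensity on a log axis of the 16 interferon-stimulated genes (grey) with Irf1, Irf7 and Irf9 in monocytes after 0, 24 and 48 h in GM-CSF, 1 array a time. Most lines dip at 24 h, Oasl2 to 86.1 and Irf7 to 219.

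Upstream, partner and target genes were counted in the same way, beside the shares over all genes given above. Of 14 sensors, adaptors and kinases, 2 were higher and 3 lower at 24 h than at 0 h, with a median of -0.19. The endosomal RNA sensor Tlr7 read 814 at 0 h, 159 at 24 h and 136 at 48 h, and the endotoxin receptor Tlr4 read 918, 2512 and 2609. Of 13 partners, 2 were higher and 1 lower at 24 h than at 0 h, with a median of -0.24. Batf3, an AP-1 factor that pairs with Irf4 and Irf8, read 1835 at 24 h against 584 at 0 h, and Jun read 2745 at 24 h against 10990 at 0 h. Of 5 myeloid targets attributed to Irf8 or Irf4, 2 were higher and 1 lower at 24 h than at 0 h, with a median of 0.66. At 48 h against 0 h, 2 were higher and 2 lower. Ciita, the class II transactivator, read 2368 at 24 h against 63.0 at 0 h, and Prdm1 read 665 against 126. Klf4, of the same list, went the other way, with 4006 at 24 h against 14857 at 0 h.

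In the cultures Irf4 was higher and Irf7 lower in GM-CSF adherent than in M-CSF adherent cells, and Irf1, Irf4 and Irf8 were higher in GM-CSF CD11c+ than in GM-CSF adherent cells. Each culture had 1 array, so there is again no p-value. In GM-CSF adherent against M-CSF adherent cells, 1 of 8 members was higher and 1 lower, beside 3.37% and 2.12% of genes. In GM-CSF CD11c+ against GM-CSF adherent cells, 3 were higher and 0 lower, beside 2.45% and 1.28%. In GM-CSF CD11c+ against M-CSF adherent cells, 3 were higher and 1 lower, beside 5.32% and 4.29%. These comparisons share arrays and are not independent.

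Irf4 read 950 in GM-CSF CD11c+ cells and 319 in GM-CSF adherent cells, against 27.0 in M-CSF adherent cells. The M-CSF value lay close to the median of its array. In the same cells the second Irf4 probe set was dimmer, at 65.8, 37.6 and 19.1. On log2(intensity + 32) it was past 2-fold in no culture comparison. GM-CSF CD11c+ minus M-CSF adherent cells gave 0.94 for this probe set, although the ratio of its intensities was 3.45. Irf8 read 5181 in GM-CSF CD11c+ cells, against 2075 in GM-CSF adherent cells and 2268 in M-CSF adherent cells. Its second probe set gave 3136, 1134 and 1261 in the same cells. On log2(intensity + 32), GM-CSF adherent minus M-CSF adherent cells gave 2.57 for Irf4 and -0.13 for Irf8, and the first depends on the added 32. Irf1 followed Irf8, with 2959 in GM-CSF CD11c+ cells, against 1023 in GM-CSF adherent and 1353 in M-CSF adherent cells.

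Irf7 ran the other way, with 258 in GM-CSF CD11c+ cells and 382 in GM-CSF adherent cells, against 1077 in M-CSF adherent cells. Irf9 read 588 and 509 in the GM-CSF CD11c+ and adherent cells, against 747 in M-CSF adherent cells, and was not counted. Irf5 read 1603 and 1416 in the GM-CSF cells, against 1375 in M-CSF cells. Irf3 read 1124 and 698 in the GM-CSF cells against 793, and Irf2 read 544 and 625 against 450. Of these 5 members only Irf7 reached 2-fold by its leading probe set.

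**Figure D5:**
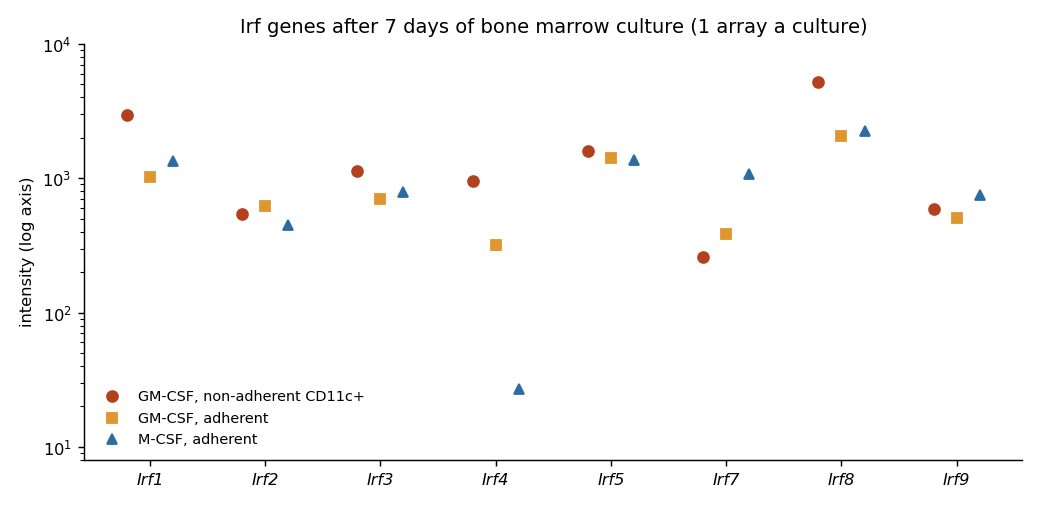
Intensity of each Irf gene on a log axis in GM-CSF CD11c+ cells, GM-CSF adherent cells and M-CSF adherent cells, 1 array each. Irf4 is at 950, 319 and 27.0 in these cells, and Irf7 at 258, 382 and 1077.

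Of the 16 interferon-stimulated genes, 0 were higher and 5 lower in GM-CSF adherent than in M-CSF adherent cells. In GM-CSF CD11c+ against GM-CSF adherent cells, 4 were higher and 1 lower. In GM-CSF CD11c+ against M-CSF adherent cells, 4 were higher and 8 lower. The list's median differences on the log2 scale were -0.803, -0.26 and -1.025 in these comparisons. Over all genes the medians were -0.016, 0.009 and 0.005. The shares of all genes in these comparisons are given above. Ifit2, of the same family as Ifit1, read 127 in GM-CSF CD11c+ cells and 335 in GM-CSF adherent cells, against 1411 in M-CSF adherent cells. Mx1, an antiviral GTPase, went the other way, with 1908 and 289 in the GM-CSF cells against 289 in M-CSF cells. Il12b, a cytokine subunit gene that Irf8 is known to activate, read 2367 in GM-CSF CD11c+ cells and 229 in GM-CSF adherent cells, against 37.1 in M-CSF adherent cells. Spib, an Ets factor related to PU.1, read 1407 in GM-CSF CD11c+ cells against 171 in GM-CSF adherent cells. Neutrophil markers did not run together: Mmp8 read 6157 in GM-CSF CD11c+ and 6181 in GM-CSF adherent cells, against 473 in M-CSF adherent cells. Ngp read 123 in GM-CSF CD11c+ and 4379 in GM-CSF adherent cells, against 2079 in M-CSF adherent cells, and Ltf and Camp had that same order. Their part in these differences was not tested.

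Among the progenitors, the lists of genes around the family were described by their counts in the same limma fit. Over all genes the median differences were -0.01 in GMP against CMP, 0.00 in CDP against CMP and -0.01 in pre-cDC against CDP. For every list, the shares of all genes called were 6.26% higher and 8.67% lower in GMP against CMP. They were 6.4% and 5.55% in CDP against CMP, 14.9% and 11.2% in CDP against GMP, and 13.2% and 17.4% in pre-cDC against CDP. Counts near these shares say nothing particular about a list. Of the 13 partners and binding proteins, 1 rose and 6 fell in GMP against CMP, 6 rose and 0 fell in CDP against CMP, and 6 rose and 1 fell in pre-cDC against CDP. The list's median differences were -0.16, 0.21 and 0.16 in these comparisons. In CDP against GMP, 8 rose and 1 fell, with a median of 0.57. Spib averaged 1549 ± 35.0 in pre-cDC and 30.4 ± 1.24 in CDP (SD, n = 2 each), and rose by 4.66 on the log2 scale (adjusted p = 4.15e-11 by limma). Spi1, the gene of PU.1, averaged 360 in CDP and 186 in CMP, and rose by 0.84 (adjusted p = 0.00057 by limma). Batf3 averaged 44.0 in CDP and 4.62 in CMP, and rose by 1.05 (adjusted p = 2.54e-05 by limma). Junb averaged 544 in GMP and 860 in CMP, and fell by 0.64 (adjusted p = 0.0051 by limma).

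Of the 8 receptor and JAK-STAT genes, 1 rose and 1 fell in GMP against CMP, 5 rose and 1 fell in CDP against CMP, and 4 rose and 0 fell in pre-cDC against CDP, with medians of 0.00, 0.49 and 0.50. In CDP against GMP, 5 rose and 1 fell, with a median of 0.49. Jak2, a kinase of the interferon gamma and cytokine receptors, averaged 1974 in pre-cDC and 597 in CDP, and rose by 1.67 (adjusted p = 1.78e-07 by limma). Tyk2, a kinase of the type I interferon receptor, averaged 583 in pre-cDC and 189 in CDP, and rose by 1.48 (adjusted p = 1.95e-06 by limma). Ifngr1, a chain of the interferon gamma receptor, averaged 1537 in GMP and 750 in CMP, and rose by 1.01 (adjusted p = 1.95e-05 by limma), unlike the Irf genes in that comparison.

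Of the 14 sensors, adaptors and kinases, 2 rose and 3 fell in GMP against CMP, 1 rose and 2 fell in CDP against CMP, and 4 rose and 4 fell in pre-cDC against CDP. Their median differences lay between -0.09 and 0.10 in these comparisons. In CDP against GMP, 3 rose and 3 fell, with a median of -0.05. Myd88, the adaptor of most Toll-like receptors, averaged 434 in pre-cDC and 160 in CDP, and rose by 1.28 (adjusted p = 3.54e-06 by limma). Ikbke, a kinase of Irf3 and Irf7, averaged 15.4 in pre-cDC and 63.3 in CDP, and fell by 1.01 (adjusted p = 3.82e-05 by limma). Sting1, the adaptor of cytosolic DNA sensing, averaged 825 in CDP and 411 in CMP, and rose by 0.96 (adjusted p = 0.00025 by limma).

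Of the 16 interferon-stimulated genes, 1 rose and 8 fell in GMP against CMP, 1 rose and 4 fell in CDP against CMP, and 7 rose and 1 fell in pre-cDC against CDP, with medians of -0.37, -0.23 and 0.36. In CDP against GMP, 7 rose and 1 fell, with a median of 0.20. Mx1 averaged 601 in pre-cDC and 102 in CDP, and rose by 2.24 (adjusted p = 2.70e-08 by limma). Usp18, a protease that limits interferon signalling, averaged 218 in pre-cDC and 56.2 in CDP, and rose by 1.51 (adjusted p = 1.11e-05 by limma). Oasl2 averaged 24.6 in GMP and 75.0 in CMP, and fell by 0.92 (adjusted p = 0.00041 by limma). The 5 interferon genes were dim throughout, with summed intensities of 29.2 to 55.3 in the progenitor arrays. Of these, 1 rose and 0 fell in GMP against CMP, Ifna4, which averaged 21.7 in GMP and 4.67 in CMP, and 0 changed in CDP against CMP or in pre-cDC against CDP by limma.

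Of 5 myeloid targets attributed to Irf8 or Irf4, 2 rose in GMP against CMP, 3 rose in CDP against CMP and 4 rose in pre-cDC against CDP, and 0 fell in each. The medians were 0.11, 0.37 and 1.90. In CDP against GMP, where Irf8 rose, 1 rose and 1 fell, with a median of 0.05. Those were Klf4, which rose by 2.31 (adjusted p = 4.56e-08 by limma), and Cybb, which fell by 0.95 (adjusted p = 0.0001 by limma). Klf4, a monocyte transcription factor, averaged 5397 in pre-cDC and 1340 in CDP, and rose by 1.98 (adjusted p = 1.12e-07 by limma). Cybb, the catalytic subunit of the phagocyte oxidase, averaged 353 in GMP and 39.2 in CMP, and rose by 2.43 (adjusted p = 7.97e-08 by limma), while Irf8 fell in that comparison.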

How the data were processed

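The authors deposited 1 linear intensity per probe set and array, from 15 one-colour Affymetrix 3' arrays labelled with a 3' IVT Express kit, per the labels. Background correction, summarisation and scaling by the authors are not given in the sources used here. Columns matched samples by identifier, and columns that matched none numbered 0. The annotation gave a single gene for 34945 probe sets, several for 932 and none for 9160. A gene's leading probe set was the brightest on average over the 15 arrays.

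Intensities were transformed as log2(intensity + 32) with no further normalization. The 8 bone marrow progenitor arrays, 2 in each of 4 groups, were fitted with limma 3.58.1 under R 4.3.3, using contrasts of group means and moderated variances that follow intensity. There were 4 residual and 12.2 total degrees of freedom. Two-sided p-values were adjusted by Benjamini-Hochberg over 45037 probe sets, with a threshold of 0.05. Background shares count genes by their leading probe set. The fitting code was tested on simulated data. The number of arrays limits the precision. The 6 single-array comparisons had no test.

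Members and lists were chosen with earlier results of these data known, and the lists were written from textbook knowledge. Of 66 pathway symbols 61 were matched, and of 42 marker symbols 36. Named genes were the members, the 2 largest differences called in each pathway list and comparison whose brighter group exceeded the overall median, of which a selection is printed, and the 5 genes most correlated with each member. The alternatives were an added 16 or 64, a filter on low intensities, quantile normalization, eBayes without a trend, a replicate block, 1 value per gene, a 4-fold threshold and leaving out each array. Tables and plots were made with Python 3.11.15, pandas 2.3.3 and matplotlib 3.10.9.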

Additional observations from a re-analysis of the deposited data

How the results depend on the processing

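Of 34 comparisons of single Irf genes past the threshold, 27 stayed past it with the same direction under every alternative run, 7 lost it under at least 1, and of 14 others 1 gained it. No value changed sign among called results. Testing 1 probe set per gene, which tests fewer features, gave 3049 calls in GMP against CMP, 2626 in CDP against CMP, 5090 in CDP against GMP, 6041 in pre-cDC against CDP, 8013 in pre-cDC against GMP and 7670 in pre-cDC against CMP, where all probe sets gave 5593, 4039, 10750, 11075, 17287 and 15360. The mean over a gene's probe sets gave 2931, 2565, 5075, 5830, 7903 and 7520 in the same order. Leaving out 1 array at a time, the Irf genes called numbered 3 to 5 in GMP against CMP (3 without the second CMP array), 2 to 2 in CDP against CMP, 5 to 7 in CDP against GMP, 4 to 5 in pre-cDC against CDP, 8 to 8 in pre-cDC against GMP and 5 to 7 in pre-cDC against CMP. The probe sets called then ranged from 2535 to 6075, 1859 to 4200, 6623 to 11005, 7994 to 10414, 13702 to 17827 and 12087 to 15902. A group left with 1 array was assumed to vary like the others. With a 4-fold threshold, the Irf genes counted were 1 in GM-CSF adherent against M-CSF adherent, 0 in GM-CSF CD11c+ against GM-CSF adherent, 1 in GM-CSF CD11c+ against M-CSF adherent and 0 in monocytes at 48 h against 24 h. The last count was 1 with 64 added and 1 after quantile normalization, in place of 2. With 64 added the member lost was Irf9, whose difference of 1.02 lay just above the 2-fold cut. The cause after quantile normalization was not tested. The progenitor titles share replicate numbers, but the differences between same-numbered arrays correlated at only 0.023 to 0.26 between groups, so the numbers were not taken as pairs. With the replicate block the Irf genes called were 5, 2, 7, 6, 8 and 7 in the 6 comparisons, and the block added the fall of Irf1 in pre-cDC against CDP (adjusted p = 0.0459 by limma). Dim signals limit Irf4 and Irf7 outside pre-cDC, and single arrays limit the cultures and monocytes.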

Other observations

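The genes whose pattern over the 8 progenitor arrays was most like that of each member were taken from 2986 candidates. These had group means spanning at least 2-fold and a highest group mean above the median. The Irf members themselves and genes with provisional symbols, such as RIKEN and Gm names, were left out. Likeness was Pearson's r of log2 values, given as a description, since the arrays fall into 4 groups and are not independent points. Irf8 was most like P2rx7, a receptor for extracellular ATP (r = 0.994), and Tcf19, Mycl, Hdac6 and Kctd14. Mycl is a Myc family gene known from mouse classical dendritic cells. Irf5 was most like Rnd3 (r = 0.999), Jak2, Abca9, Marchf1 and Pmaip1. Irf4 was most like Kcne3 (r = 0.999), Nupr1, Cd300c2, Dusp3 and Slc66a2.

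Irf7 was most like Cdk14 (r = 0.997), Phf11d, Relb, Galnt10 and Slfn5, and Irf9 most like Epsti1 (r = 0.995), Pacs1, Nfkbiz, H2aw and Pnrc2. Relb is a subunit of NF-kappa B, and Epsti1 and Slfn5 are known as interferon-responsive genes. Irf1 was most like Ccr9 (r = 0.991), Btbd3, Ripor2, Trp53inp1 and Mef2c. Irf2 was most like Plek (r = 0.99), Ptpn18, Rps25, Tap1 and Zfp53. Irf3 spanned under 2-fold and was not given such genes.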
